A study of Mus musculus with 4 samples.

Results

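Naive CD8 T cells were examined in single-cell RNA sequencing (scRNAseq) of adipose tissue (AT) from WT mice and mice with Tert knockout in endothelial cells (EC). They were 612 of the 4136 barcodes kept for having 200 or more detected genes and no more than 25% of their UMIs from mitochondrial genes, where a UMI (unique molecular identifier) stands for 1 captured RNA molecule. A barcode was a member when Cd3e, Cd3d and Cd3g summed to at least 2 UMIs, Cd8a and Cd8b1 to at least 1 and Lef1 and Ccr7 to at least 1. Members also had at most 2 UMIs of Ccl5 and none of Cd4, Foxp3 or Cd79a. The measured values of these 11 genes therefore chose the cells, so their levels are descriptions and were not tested. The libraries are given throughout in the order WT SC, KO SC, WT IP and KO IP, where SC is subcutaneous and IP intraperitoneal AT, and they held 156, 438, 15 and 3 members.

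Naive CD8 T cells are cytotoxic-lineage lymphocytes that have left the thymus and have not yet met their antigen. They circulate between blood and lymphoid organs, a route kept open by the homing receptor CCR7 and the egress receptor S1pr1, and they are held at rest by transcription factors such as Lef1, Tcf7 and Klf2. After antigen they become effector and memory cells that make granzymes, chemokines and interferon gamma, and part of these settle in tissues, AT included.

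All mice were 7-month-old males fed a high-fat diet (HFD) for 5 months, and all carried Tie2e-cre and the mTmG reporter, in which Cre turns a cell from membrane tdTomato to membrane GFP. WT mice were TERT+/+ and KO mice TERTfl/fl. Each genotype and depot was 1 library, prepared with the 10x Genomics 3′ v3 kit. With 1 library per group, genotype and depot cannot be told apart from library, and no test between them was run. The number of mice behind a library, and whether lymph nodes were taken out of the fat pads, are not given in the sources used here.

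Tie2-driven Cre is also active in blood cell precursors, and whether the Tert allele of the T cells was recombined was not measured here. Tert, the gene targeted in KO mice, had 3, 2, 8 and 9 UMIs over all kept barcodes of the libraries, and none of them fell in a member. The 3-count floor of the members was 1.73 CPM in WT SC and 0.737 CPM in KO SC, where CPM is the UMIs of a gene per 1000000 UMIs of the summed cells, so Tert was not detectable in naive CD8 T cells at this depth. The members held 1729332, 4073206, 178905 and 31144 UMIs over the libraries in that order. Their median depth was 10880, 9112.5, 10410 and 10287 UMIs per cell, and their median mitochondrial share ranged from 3.36% to 3.87%. Doublet calling marked 23 kept barcodes, 2 of them members. KO SC and WT IP shared 93 barcodes, which included 1 KO SC member and no WT IP member.

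Naive CD8 T cells were a large population in subcutaneous AT and a small one in intraperitoneal AT. They made up 16.1% of the kept barcodes of WT SC (exact binomial 95% interval 13.8 to 18.5) and 22.2% of those of KO SC (20.4 to 24.1). The shares were 2.22% (1.25 to 3.64) for WT IP and 0.576% (0.119 to 1.67) for KO IP. All intervals given here cover counting error only. The KO share was above the WT share in SC and below it in IP, and the intervals of the 2 SC libraries did not overlap. Among T cell barcodes the shares were 34.7%, 38.0%, 11.8% and 2.44%. Among CD8 T cell barcodes, members were 156 of 182 (85.7%), 438 of 489 (89.6%), 15 of 38 (39.5%) and 3 of 27 (11.1%), so they were most of the CD8 T cells in SC and the minority in IP.

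B cells, defined by Cd79a without Cd3 genes, were also more frequent in SC than in IP, with 30.6%, 23.2%, 3.11% and 4.41% of kept barcodes. With each cell thinned to 2000 UMIs, members were 10.1%, 10.7%, 0.940% and 0.209% of kept barcodes. The SC shares then differed little, with overlapping intervals of 8.23 to 12.2 in WT SC and 9.29 to 12.2 in KO SC. The log2 ratio of KO SC to WT SC went from 0.47 (0.20 to 0.74) to 0.08 (-0.28 to 0.45). Among thinned CD8 T cell barcodes KO SC had 87.0% against 80.2%, and these intervals also overlapped. Among thinned T cell barcodes the order turned, with 25.1% in WT SC against 21.2%. Without the barcodes found in 2 libraries, the share of kept barcodes was 23.3% in KO SC and 2.58% in WT IP.

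**Figure D1:**
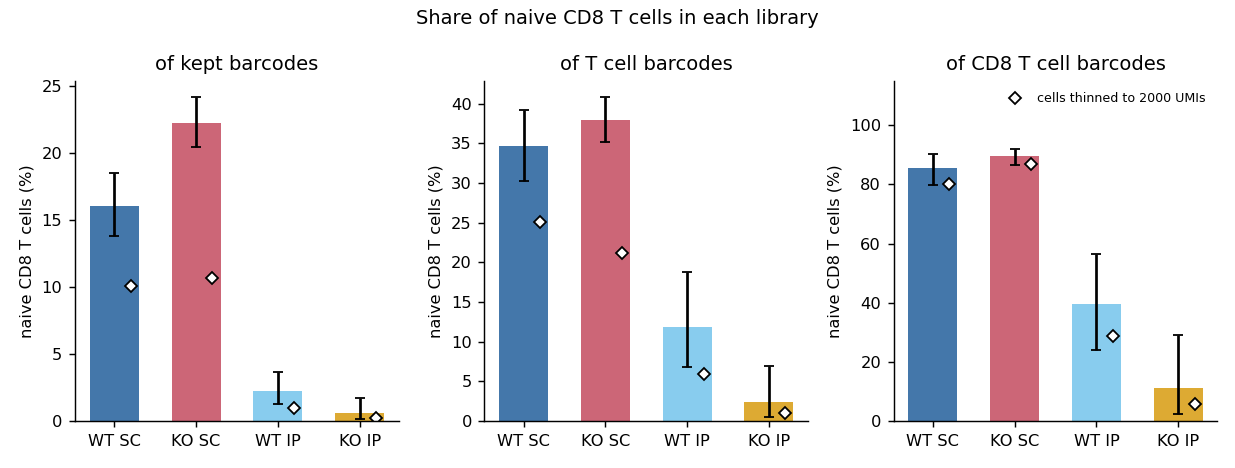
Naive CD8 T cells in percent of kept barcodes, of T cell barcodes and of CD8 T cell barcodes in the 4 libraries, as counted and after thinning each cell to 2000 UMIs, with exact binomial 95% intervals. Both SC libraries sit above both IP libraries in each panel, and thinning turns the order of WT SC and KO SC among T cells from 34.7% and 38.0% to 25.1% and 21.2%.

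The label was checked against genes the rule did not use. S1pr1, the receptor for exit from lymphoid organs, was at 240.0, 197, 134 and 353 CPM in the members. Tcf7, a transcription factor of naive and stem-like T cells, was at 305, 241, 330 and 321 CPM. Both genes were present in the members of every library, at levels that overlapped between SC and IP. Dapl1, a gene of naive CD8 cells, was at 285, 245, 296 and 96.3 CPM, the last from 3 UMIs. Klf2, which keeps T cells quiescent and drives S1pr1, was at 788, 627, 279 and 161 CPM, higher in both SC libraries than in both IP libraries. Cd44, the classical mark of antigen experience, was low, at 32.4, 16.2, 39.1 and 32.1 CPM, where CD8 T cells outside the rule had 166, 126, 203 and 235 CPM. Cd40lg, a product of CD4 helper T cells, was at 3.47, 4.91, 0 and 0 CPM.

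The rule's own genes were, as a description, Lef1 at 1176, 1066, 822 and 1605 CPM and Ccr7 at 503, 641, 430.4 and 546 CPM. Cd8a, the alpha chain of the CD8 coreceptor, was at 257, 158, 207 and 128 CPM, and Cd8b1, its beta chain, at 504, 365, 419 and 385 CPM. Cd8b1 was 3.18 and 0.406 CPM in B cells of WT SC and KO SC, cells that should lack it.

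**Figure D2:**
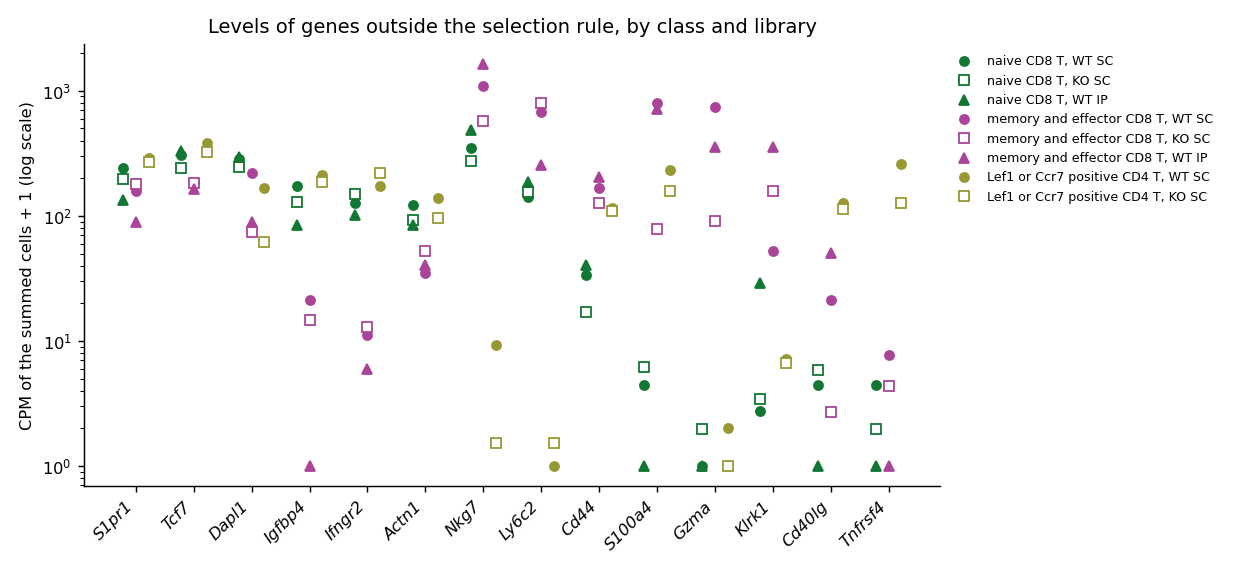
Level in CPM on a log axis of 14 genes in naive CD8 T cells, memory and effector CD8 T cells and Lef1- or Ccr7-positive CD4 T cells of the SC libraries and, for both CD8 classes, of WT IP, with 1 added before the logarithm. Gzma, S100a4 and Cd44 lie lower in the naive CD8 T cells than in the memory and effector cells of every library shown, Cd44 for example at 32.4, 16.2 and 39.1 against 166, 126 and 203 CPM.

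Markers of other cells were low in the members with few exceptions. B cell markers summed to 136, 99.9, 83.8 and 0 CPM, with Ms4a1 at 0 in WT SC. Macrophage markers summed to 117, 95.01, 67.1 and 128 CPM, with Lyz2, C1qa and C1qb at 0 in all libraries. The endothelial list summed to 109, 95.7, 117 and 225 CPM and was nearly all Pecam1, an adhesion molecule that T cells also make, with Cdh5, Kdr, Tie1 and Cldn5 at 0 in every library. NK cell markers summed to 4.05, 2.21, 0 and 0 CPM. Haemoglobin and other red cell genes summed to 1899, 503, 106 and 96.3 CPM, of which 1 barcode gave 2910 of the 3284 UMIs in WT SC and 1 barcode 1861 of the 2048 in KO SC. Stromal genes summed to 24.3, 211, 44.7 and 64.2 CPM, and 1 KO SC barcode gave 716 of the 860 UMIs there. More than 20 UMIs of stromal, red cell, macrophage or B cell markers were found in 3 members of WT SC and 3 of KO SC.

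Near its thresholds the rule drew through sparse counts. Members with 1 UMI of Cd8a and Cd8b1 numbered 10 in WT SC and 32 in KO SC, and their Cd40lg was 90.3 and 17.2 CPM, against 0 and 4.17 CPM in members with more. The 7 and 14 members with 1 or 2 UMIs of Ccl5 had Cd44 at 33.9 and 49.7 CPM. Just outside, the 4 and 3 cells with 3 to 5 UMIs of Ccl5 and a UMI of Lef1 or Ccr7 had Cd44 at 183 and 0 CPM. CD8 T cells with at least 3 UMIs of Ccl5 numbered 25 and 50, with Gzma at 778 and 91.5 CPM. In SC the Lef1 and Ccr7 threshold mattered little, since 1 and 5 members had 1 UMI of them. In each SC library 1 cell had none and at most 2 UMIs of Ccl5. In WT IP the threshold weighed more, since asking for at least 2 UMIs of Lef1 and Ccr7 left 12 of the 15 members.

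To ask which genes set naive CD8 T cells apart from other CD8 T cells in the same tissue, the members were compared with memory and effector CD8 T cells, which had at least 3 UMIs of Ccl5 or none of Lef1 and Ccr7. Most tested genes of the cytotoxic list and of the memory and tissue residency list were lower in the naive cells, and a short list led by the receptor chain Ifngr2 was higher. UMIs were summed per class and library and tested within libraries by edgeR's quasi-likelihood method over WT SC, KO SC and WT IP, since KO IP had only 3 members. Of 4948 genes, 50 were higher (1.01%) and 152 were lower (3.07%) in naive cells, and 195 of the 202 had the same sign in all 3 libraries. DESeq2 called 23 and 101. The classes were cut by genes of the same cells, and only those 11 genes were left out of the test. There were 2 residual degrees of freedom, so the p-values rest on a spread shared across genes, and with WT SC left out 12 genes were higher and 74 lower.

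The cytotoxic and effector list was the clearest group. Of its 22 genes tested 19 fell and none rose, with a median log2 difference of -2.69 where all genes had 0.03. Gzma, a granzyme of killer cells, was at 0, 0.982 and 0 CPM in naive cells and at 744, 90.0 and 356 CPM in memory and effector cells of WT SC, KO SC and WT IP. The classes did not overlap, and the log2 difference was -8.42 ± 0.48 (approximate SE, n = 3 libraries, adjusted p = 1.88e-07). The approximate SE was derived from the F statistic of the test. It can fall below counting error where a class has few UMIs. Gzmb, the granzyme that triggers apoptosis in targets, fell by 6.22 ± 0.60 (adjusted p = 1.90e-05). Ifng, the cytokine interferon gamma, was at 4.05, 0 and 0 CPM against 180.0, 30.6 and 129 CPM, and fell by 5.93 ± 0.50. Tbx21, the transcription factor T-bet of effector cells, fell by 3.17 ± 0.33 and Eomes, its relative in memory cells, by 1.96 ± 0.42. Nkg7, a granule protein, was not absent from naive cells, at 349, 273 and 481 CPM against 1087, 569 and 1633 CPM, and fell by 1.40 ± 0.18. Klre1, a killer-cell lectin receptor, had no UMI in naive cells of the 3 libraries and 46.1 CPM in the memory and effector cells together, at least 91.8-fold higher there against a floor of 3 counts over the group.

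Memory and tissue residency genes fell as a group as well, with 17 of 20 tested lower, none higher and a median of -1.95. S100a4, a calcium-binding protein of motile memory cells, was at 3.47, 5.16 and 0 CPM in naive cells and at 792, 78.1 and 707 CPM in the others, and fell by 5.86 ± 0.50. Cd44 fell by 2.59 ± 0.25, and Il2rb, the receptor chain for interleukin 2 and 15 that memory CD8 cells display, fell by 1.28 ± 0.17 from 333, 323 and 361 CPM to 137, 140 and 112 CPM. Ly6c2, a surface protein of memory CD8 cells and part of the naive ones, fell by 1.91 ± 0.29.

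Homing and quiescence genes were the smaller part of the contrast. Of 27 tested, Ramp1, Dapl1, Igfbp4 and Actn1 were higher and Sidt1 was lower, with a median of 0.44 and 22 of the 27 above 0. Igfbp4, a binding protein of insulin-like growth factors that marks naive T cells, was at 172, 127 and 83.8 CPM in naive cells and 20.4, 13.6 and 0 CPM in the others, and rose by 3.38 ± 0.35 (adjusted p = 3.87e-05). Ramp1, a subunit of the receptor for the neuropeptide CGRP, was at 46.8, 46.2 and 72.7 CPM against 3.397, 1.70 and 34.6 CPM. Actn1, an actin crosslinker, rose by 1.23 ± 0.27. Other genes of recirculation and quiescence did not pass the test. S1pr1 differed by 0.44 ± 0.20 and Klf2 by 0.51 ± 0.17, while Tcf7 differed by 0.73 ± 0.19 (adjusted p = 0.0530).

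The receptors for interferon gamma moved in opposite directions. Ifngr2, the signalling chain, was at 125, 148 and 101 CPM in naive cells and at 10.2, 11.9 and 4.95 CPM in memory and effector cells. The classes did not overlap, and Ifngr2 rose by 3.73 ± 0.32 (adjusted p = 8.65e-06). Ifngr1, the ligand-binding chain, was at 332, 399 and 386 CPM against 707, 647 and 811 CPM, and fell by 0.87 ± 0.17 (adjusted p = 0.00604). Of 24 cytokine and chemokine receptors tested, Ifngr2 was the 1 that rose and 8 fell, among them Cxcr3 by 3.23 ± 0.46 and Cxcr6 by 1.72 ± 0.29, which guide effector cells into inflamed tissue, and Il12rb2 by 2.55 ± 0.33 and Il18r1 by 2.06 ± 0.23, which receive the cytokines that induce interferon gamma. Other genes higher in naive cells included Plaur, the urokinase receptor, at 95.4, 189 and 168 CPM against 20.4, 20.4 and 0 CPM, Patj, a cell polarity scaffold, by 1.96 ± 0.27, and Slamf1, a costimulatory receptor, by 2.15 ± 0.44.

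Several lists held no gene that passed. These were 14 glycolysis, 15 hypoxia response, 13 mitochondrially encoded and 5 checkpoint genes, of which edgeR and DESeq2 called 0 and 5 of the 47 had an unadjusted edgeR p under 0.05. With 1.01% and 3.07% of all genes called higher and lower, a count of 0 in lists this short is near the background. Among the 12 senescence and arrest genes, Sesn1, a stress-induced repressor of growth signalling, rose by 1.31 ± 0.25 and Cdkn1a, the p21 cell cycle inhibitor, fell by 1.70 ± 0.32. Of 25 T cell receptor signalling genes only Cd5, a brake on receptor signalling, fell, by 0.86 ± 0.21, and of 23 immediate early genes Rgs1, Dusp2 and Zfp36l2 fell. Red cell genes were higher in naive cells in all 3 tested, and their UMIs came mostly from the single barcodes named above.

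**Figure D3:**
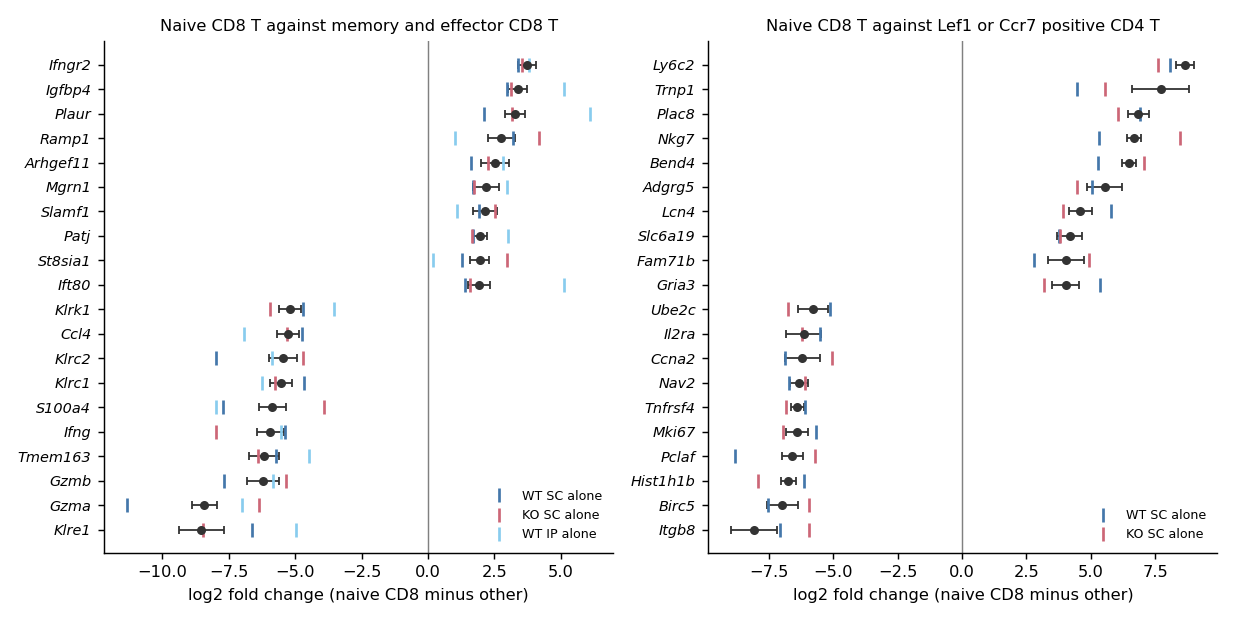
Log2 differences of naive CD8 T cells against memory and effector CD8 T cells and against Lef1- or Ccr7-positive CD4 T cells, for the genes named by size on each side, with the fitted value and approximate SE and the difference in each library. Ifngr2 leads the higher genes of the former contrast at 3.73 and Ly6c2 those of the latter at 8.66.

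Against CD4 T cells that also had a UMI of Lef1 or Ccr7, at most 2 of Ccl5 and none of Foxp3, the naive CD8 T cells differed in lineage genes, in a set of killer-cell genes, and in genes of division. WT SC and KO SC held enough cells of both classes, 101 and 252 in the CD4 class. Of 8725 genes, 533 were higher (6.11%) and 541 lower (6.2%), and 1067 of the 1074 had the same sign in both libraries. DESeq2 called 188 and 163, and only 1 residual degree of freedom stood behind the edgeR test, so that the counts rest on a spread borrowed across genes. This contrast shares the naive CD8 sums with the one above.

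Ly6c2 was at 139 and 155 CPM in the naive CD8 cells of WT SC and KO SC and at 0 and 0.521 CPM in the CD4 cells. The log2 difference was 8.66 ± 0.36 (approximate SE, n = 2 libraries, adjusted p = 2.19e-13). With so few UMIs in the CD4 cells, its size is less certain than this SE shows. Nkg7 was at 349 and 273 CPM against 8.23 and 0.521 CPM and rose by 6.68 ± 0.27. Bend4, a gene of the BEN domain family, was at 178 and 174 CPM against 4.12 and 1.04 CPM, and Plac8, a small cysteine-rich protein, at 61.9 and 87.6 CPM against 0 and 1.04 CPM. In each of these genes the CD8 values stood far above the CD4 values in both libraries. Trnp1, a nuclear protein known from brain development, had 68 UMIs in the CD8 cells and none in the CD4 cells, at least 11.3-fold higher.

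The classes were cut by Cd4, Cd8a and Cd8b1 of the same cells, so differences in lineage genes follow that cut and describe it. Of the 11 CD8 lineage genes, 9 rose, with a median of 2.30, where all genes had 0.00. They included Ccr9, a gut-homing receptor of recent thymic emigrants and naive CD8 cells, by 3.91 ± 0.44, Ctsw, a protease of cytotoxic cells, by 3.20 ± 0.21, Itgae, the CD103 integrin chain, by 2.40 ± 0.34, and Runx3, the transcription factor of the CD8 lineage, by 1.21 ± 0.14. St8sia6, a sialyltransferase, and Tspan32, a tetraspanin, were lower. Of the 10 CD4 lineage genes 9 fell and none rose, with a median of -1.56. Cd40lg, which gives help to B cells, fell by 4.55 ± 0.24, Zbtb7b, the transcription factor ThPOK of the CD4 lineage, by 4.10 ± 0.68, and Tnfsf8, the CD30 ligand, by 2.82 ± 0.17.

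Cytotoxic genes were divided, with 7 of 17 higher and 3 lower and a median of 0.55. Klrd1, the CD94 receptor chain, was at 190.2 and 255 CPM against 22.6 and 19.3 CPM and rose by 3.62 ± 0.17, and Prf1, the pore-forming perforin, rose by 1.15 ± 0.34 (adjusted p = 0.0292). Il2rb rose by 1.38 ± 0.14. Ifngr2, which led the higher genes of the memory contrast, was lower in the CD8 cells here, and Ifngr1 was higher. Naive homing genes were also divided, with 6 of 28 higher, 4 lower and a median of 0.04. Dapl1 rose by 1.53 ± 0.18, Il6ra, the receptor of interleukin 6, fell by 0.61 ± 0.16, and Tcf7, Klf2, S1pr1 and Satb1 did not pass. Of 23 immediate early genes 9 were higher, Cd69 by 0.59 ± 0.11 and Fos by 0.68 ± 0.11, and 3 were lower. Of 13 mitochondrially encoded genes 8 were higher and none lower, with a median of 0.23. Of 16 glycolysis genes 1 was higher and 4 lower, of 18 hypoxia response genes 1 and 2. Of 17 senescence and arrest genes none was higher and 5 were lower. Among all genes 6.11% were called higher and 6.2% lower.

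The CD4 class also held transcripts of division and activation. Of 20 proliferation genes 16 were lower in the CD8 cells and none higher, with a median of -2.55, and Mki67, a marker of cycling cells, was at 1.16 and 0.246 CPM against 74.1 and 45.8 CPM. Tnfrsf4, the costimulatory receptor OX40, was at 3.47 and 0.982 CPM against 259 and 126 CPM, and Il2ra, the high-affinity chain of the interleukin 2 receptor, at 0.578 and 0 CPM against 39.1 and 8.85 CPM. Checkpoint genes followed, with 8 of 11 lower, as did 12 of 21 memory and residency genes. Stromal markers summed to 37.04 and 1143 CPM in the CD4 class of WT SC and KO SC, against 24.3 and 211 CPM in the members, and Col3a1, a fibrillar collagen of stromal cells, was among the genes lower in the CD8 cells (-4.50 ± 0.38). With barcodes of over 20 UMIs of other cells' markers left out, 524 genes were higher and 518 lower. The part of dividing and activated cells in the other differences from CD4 cells was not tested.

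The mTmG reporter split the members into cells with many GFP UMIs and cells with none. At least 2 UMIs of the GFP coding sequence were found in 101 of the 156 members of WT SC (64.7%, interval 56.7 to 72.2) and 150 of the 438 of KO SC (34.2%, 29.8 to 38.9). The WT IP library had 9 of 15 (60%, 32.3 to 83.7) and KO IP 1 of 3. In the SC libraries 51 and 273 members had none, and only 4 and 15 had exactly 1. Marked members had a median of 23 UMIs in WT SC and 15 in KO SC. The tdTomato transcript, which Cre removes, was nearly exclusive with GFP, since all 11 of its UMIs in WT SC and 27 of 33 in KO SC lay in members without GFP and 1 in a marked one.

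Other lymphocytes also had a lower marked share in KO SC. Memory and effector CD8 cells were marked in 80.8% and 51.0% of WT SC and KO SC, the CD4 class in 61.4% and 38.5% and B cells in 39.1% and 22.1%. The share with a GFP UMI after thinning to 2000 UMIs was 60.6% and 33.6% of members. Stromal barcodes, which should not use the Tie2 promoter, carried at least 2 UMIs in 30.9% of 55 in WT SC (19.1 to 44.8, median depth 7448) and 24.7% of 146 in KO SC (17.9 to 32.5, median depth 1055.5). The marked share of members lay above that background in WT SC, and in KO SC the intervals overlapped. Free RNA in the stromal barcodes was not separated from expression.

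**Figure D4:**
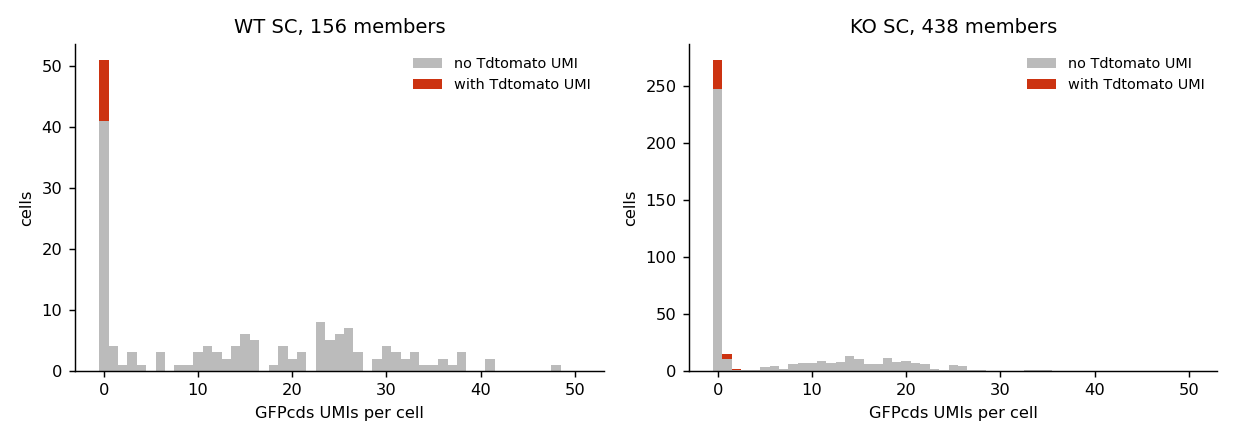
Number of naive CD8 T cells by their UMIs of the GFP coding sequence in WT SC (156 members) and KO SC (438 members), with members that hold a tdTomato UMI in red. The bar at no GFP UMI holds 51 and 273 members, few members hold 1, and the red cells lie almost all at the left end.

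Apart from the reporter itself, marked and unmarked members differed little. In edgeR over WT SC and KO SC, 1 of 7707 genes was higher in marked cells (0.013%) and 3 were lower (0.0389%), 426 had an unadjusted p under 0.05, and DESeq2 called 0 with 23 under 0.05. Kcnq5, a potassium channel, was at 56.1 and 83.6 CPM in marked and 32.4 and 29.1 CPM in unmarked members, a rise of 1.35 ± 0.23 (adjusted p = 1.22e-05). The lower ones were Tdtomato, by 4.91 ± 0.94, Malat1, a nuclear long noncoding RNA, by 0.19 ± 0.04, and Gsn, whose 105 CPM in unmarked KO SC cells came mainly from the single stromal barcode. None of the 28 homing and quiescence, 12 cytotoxic, 18 memory and 25 T cell receptor genes tested passed.

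Members were not uniform among themselves. Cells were thinned to 5000 UMIs, which kept 147 in WT SC and 424 in KO SC, and each of 4703 genes was given a Fano factor, the variance of its UMIs over the mean, whose median was 1.15 and 1.13. Trbc1, a constant segment of the T cell receptor beta chain, was among the most variable in both, at 6.32 and 6.26, with a UMI in 53.7% and 53.8% of cells. A T cell normally uses Trbc1 or Trbc2. Before thinning, Trbc1 exceeded Trbc2 in 50, 143, 6 and 0 members and Trbc2 exceeded Trbc1 in 102, 289, 8 and 3. The 63 and 172 members of WT SC and KO SC with at least 5 Trbc1 UMIs still had a median of 6 and 5 Trbc2 UMIs. Where Trbc1 was absent the median was 15 and 9. Transcripts of both constant segments were thus present, often in the same cell, and segment use per cell was not resolved. Trbv segments were detected in 33 members of WT SC and 85 of KO SC and spread over 15 and 17 of 35 segments, with at most 4 cells on Trbv16 in WT SC and 12 on Trbv12-2 in KO SC.

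Other genes varied in subsets of members. Ikzf2, the transcription factor Helios, had Fano factors of 4.53 and 5.16 and was seen in 14.3% and 14.6% of thinned members of WT SC and KO SC. Ccr9 was found in 33.3% and 35.5% of the cells with Ikzf2 and in 9.52% and 9.12% of those without, and Myb, a transcription factor of immature lymphocytes, in 57.1% and 46.8% against 27.0% and 21.8%. Ly6c2 had Fano factors of 3.77 and 3.54. Dapl1 was found in 70.6% and 70.6% of the cells with Ly6c2 and in 47.8% and 37.1% of those without, and Eomes in 20.6% and 5.50% against 4.42% and 1.59%. Nfkbia, the inhibitor that NF-kB induces, had 3.93 and 5.15, and cells with it more often had Cd69, an early activation antigen, at 56.2% and 60.9% against 27.5% and 39.9%, and Gadd45b, a stress-response gene, at 42.7% and 28.5% against 15.7% and 13.7%. Ctla4, the inhibitory receptor, had 4.28 in both libraries and a UMI in 29.9% and 39.9% of cells. These shares describe cells of 1 library each and were not tested.

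Between genotypes, the members of KO SC and WT SC could be set side by side as 2 libraries, without a test. Of 9274 genes with at least 20 UMIs over both, 207 were past 2-fold higher (2.23%) and 291 past 2-fold lower (3.14%) in KO, and the median log2 ratio was -0.11. The 8 highest by the interval limit nearest 0 were Dcn, Fn1, Tnfaip6, Mt1, Ccl2, Serping1, Ifitm3 and Gfpt2, genes of stromal cells and of inflammation, and 85.4% to 100% of their KO UMIs came from 1 barcode each. Without the 6 members with over 20 UMIs of other cells' markers, 9177 genes were compared, 147 were past 2-fold higher and 298 past 2-fold lower, with a median of -0.12. The values below leave out those 6 members and name genes in which no barcode gave over 20% of the UMIs.

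H2-D1, a classical MHC class I heavy chain that presents peptides to CD8 T cells, was at 2630 CPM in KO SC and 1368 CPM in WT SC, a log2 ratio of 0.94 (exact conditional 95% interval 0.88 to 1.01). Over all members, H2-D1 was at 1368, 2627, 1213 and 3436 CPM, with Poisson intervals of 1314 to 1424, 2578 to 2678, 1057 to 1385 and 2816 to 4152. Both KO libraries were above both WT libraries, with no overlap. The ratio was 0.80 in memory and effector CD8 cells, 0.95 in the CD4 class and 0.78 in B cells of SC, and 0.97 in memory and effector CD8 cells and 0.80 in B cells of IP. H2-Q7, a nonclassical class I gene, went the other way, at 264 against 576 CPM, a ratio of -1.12 (-1.25 to -0.997). H2-Q7 and its near-identical neighbours can share reads, so that value is uncertain.

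Dnah8, an axonemal dynein chain not known for a role in T cells, had 369 UMIs in KO SC against 26 in WT SC, or 91.5 and 15.3 CPM, a ratio of 2.55 (2.005 to 3.21). Over all members Dnah8 was at 15.0, 91.1, 50.3 and 96.3 CPM, lowest in WT SC, the last value lying at the 3-count floor of KO IP. The ratio was 2.31, 1.94 and 2.93 in memory and effector CD8 cells, the CD4 class and B cells of SC, and 1.17 (0.06 to 2.58) and 2.45 (0.19 to 8.40) in memory and effector CD8 cells and B cells of IP, the latter on 11 against 1 UMIs. Glo1, the glyoxalase that detoxifies methylglyoxal, was at 72.2 and 31.2 CPM in KO SC and WT SC, a ratio of 1.20 (0.78 to 1.66). The annotated 5′ starts of Glo1, on the minus strand, and Dnah8, on the plus strand, overlap (GRCm38, chr17:30584936-30626871 for Glo1 and chr17:30624354-30877365 for Dnah8). The difference was not confined to this pair. Btbd9, added here for its position (start at chr17:30215524), was at 434 CPM in KO SC and 240 CPM in WT SC, a ratio of 0.85 (0.70 to 1.01). Ltb, the membrane anchor of lymphotoxin made by resting lymphocytes, was at 79.6 and 229 CPM, a ratio of -1.52 (-1.74 to -1.30), and over all members at 235, 78.8, 218 and 0 CPM. Both KO libraries were below both WT libraries for Ltb. The 0 of KO IP came from 3 members with a 3-count floor of 96.3 CPM, above the KO SC value, and so adds little.

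Of the 16 genes named on the 2 sides, Glo1, Dnah8, Hspa1b, Ltb (chr17:35194439-35196320) and H2-D1 (chr17:35262730-35267499) lay on chromosome 17, which held 494 of the 9169 genes compared with a position. This feature was chosen after the values were seen. The other higher genes were Clca3a1, with 26 UMIs against 0 and at least 3.68-fold, Pcdh1, a protocadherin, with 22 against 0 and at least 3.11-fold, Prelid2 at 1.94, Zc3hav1l at 1.61 and Trim23, a ubiquitin ligase, at 1.80. The other lower ones were Kif23, a kinesin of cell division, at -2.09, Mid1 at -2.01, Cnr2, the cannabinoid receptor of immune cells, at -2.18, Cdk5rap1 at -2.22, Ddit4, an inhibitor of mTOR, at -1.89 and Zfp992 at -2.50. Genes whose whole interval lay beyond a log2 ratio of 0.5 in either direction were 24 of the 494 on chromosome 17 (4.86%). Elsewhere they were 117 of 8675 (1.35%). Between 24 and 37 Mb of chromosome 17 they were 15 of 231 (6.49%). What lay behind this regional difference was not tested.

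**Figure D5:**
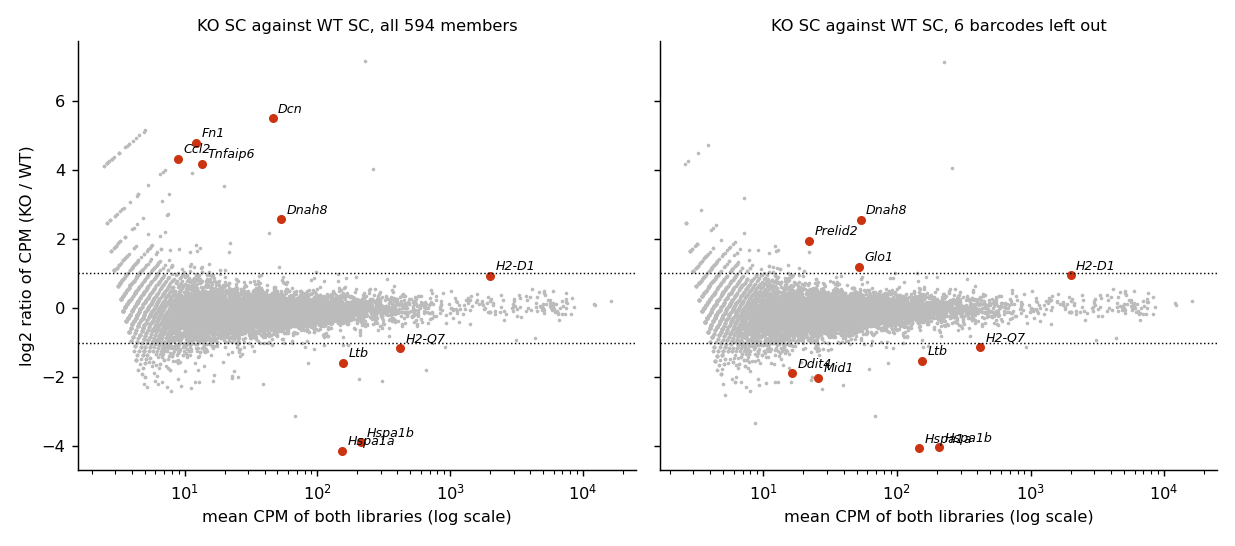
Log2 ratio of KO SC to WT SC in naive CD8 T cells against mean CPM for all genes with at least 20 UMIs, over all members and with 6 barcodes left out, some named genes being marked in red and 2-fold changes by dotted lines. With the barcodes left out, H2-D1 stands at 0.94 at high abundance, Dnah8 at 2.55, and Hspa1a and Hspa1b at -4.06 and -4.02, while Dcn, Fn1, Ccl2 and Tnfaip6 are marked only over all members and the unlabelled points above Dnah8 at higher abundance are unnamed gene models.

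No list of T cell genes moved past 2-fold as a whole between the SC libraries. Medians were -0.14 for the 28 homing and quiescence genes, -0.28 for 15 cytotoxic genes, -0.06 for 19 memory genes, -0.26 for 25 T cell receptor and signalling genes and -0.35 for 11 CD8 lineage genes, beside -0.12 for all genes. Within homing and quiescence, Itga6, an integrin chain, was at 51.3 against 113 CPM (-1.14, interval -1.43 to -0.85), Sidt1 stood at -0.82 (-0.96 to -0.68), Tcf7 at -0.36 (-0.52 to -0.20) and Satb1, a chromatin organiser, at 0.18 (0.11 to 0.25). Cd5 stood at -0.75 (-1.07 to -0.42) and Cd6, its relative, at -0.66 (-0.94 to -0.38). Cd44 stood at -1.01 (-1.55 to -0.47) and Eomes at -1.66 (-2.44 to -0.90), on 66 against 56 and 27 against 36 UMIs. Lists tied to the study's theme had medians of -0.21 for 17 senescence and arrest genes, -0.10 for 18 hypoxia response genes, -0.19 for 16 glycolysis genes and -0.10 for the 13 mitochondrially encoded genes, and Cdkn1a stood at 0.20 (-0.50 to 0.998).

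The inducible heat shock genes were far lower in KO SC than in WT SC. Hspa1a and Hspa1b, the inducible HSP70 chaperones, were at -4.06 (-4.46 to -3.70) and -4.02 (-4.35 to -3.72), and their near-identical sequences can share reads. Together they reached 686, 43.2, 374 and 64.2 CPM over all members, and 53.8%, 24.2%, 33.3% and 33.3% of members had a UMI. After thinning, the share was 27.7% in WT SC and 6.41% in KO SC. By CPM the values of WT SC lay far above those of both KO libraries, that of KO IP resting on 2 UMIs. In WT IP 61 of the 67 UMIs came from 1 cell. The same genes were at 1426 and 30.7 CPM in the CD4 class and at 1640 and 119 CPM in B cells of WT SC and KO SC. Jun, an immediate early transcription factor, stood at -1.11 (-1.32 to -0.91), while Fos, its partner, stood at 0.27 (0.14 to 0.41).

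The ratios were also read within GFP-marked members (150 of KO SC against 101 of WT SC) and within members without GFP (273 against 51). H2-D1 stood at 0.98 in marked and 0.95 in unmarked cells, Dnah8 at 2.58 and 2.27, Ltb at -1.53 and -1.35, and Hspa1b at -3.90 and -3.71. Cd8a, a gene of the rule, stood at -0.51 and -0.84. Itga6 stood at -0.81 (-1.26 to -0.37) and -1.68 (-2.08 to -1.26), and Tcf7 at -0.68 (-0.92 to -0.46) and -0.09 (-0.35 to 0.19), the latter interval holding 0. No difference between marked and unmarked cells was tested here.

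The members of IP were too few for ratios. The homing and quiescence list summed to 9523, 9133, 8882 and 11206 CPM in the members of the 4 libraries. Memory and effector CD8 cells had 9179, 8930, 6664 and 4122 CPM, and B cells of WT SC and KO SC had 9566 and 8902 CPM. In SC this sum therefore hardly separated the classes. The cytotoxic list summed to 1197, 1036, 1319 and 674 CPM, where memory and effector CD8 cells had 4277, 2670.5, 6619.8 and 5558 CPM. Memory and residency genes summed to 1930.2, 1792, 2879 and 1894 CPM in members and to 7555, 4392, 10721 and 13278 CPM in memory and effector cells. The last of these classes also held stromal markers at 4050 CPM, against 99.0 CPM in WT IP, and the memory list has genes that stromal cells express too, such as Vim and Lgals1. The members of each library were below the other CD8 cells of their own library for the cytotoxic and the memory list. The 15 WT IP members had the highest sum of memory genes among members, and 1 UMI was worth 5.59 CPM there and 32.1 CPM in KO IP. Ikzf2 was at 83.3, 97.0, 486 and 32.1 CPM in members, and in WT IP 74 of the 98 UMIs of regulatory T cell markers, the list that holds it, came from 1 cell.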

How the data were processed

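AT of 4 groups, 1 library each, was profiled by 10x Genomics 3′ v3 scRNAseq. The deposited matrices hold raw UMI counts per gene and barcode over 32290 features with 5 reporter entries, made by the authors with Cell Ranger (7.0.0 in the file headers) on mm10, with STAR 2.6 in the submitters' processing notes. The labels name both cells and a nuclei suspension. Members and gene lists were chosen with earlier results of these data known. Barcodes were kept at 200 genes and 25% mitochondrial UMIs. CPM is per 1000000 UMIs of the summed cells. Class sums per library were tested with edgeR 4.0.16 (quasi-likelihood, library as block, TMM, filterByExpr, Benjamini-Hochberg, threshold 0.05), DESeq2 1.42.0 being the alternative, and the scripts were tested on simulated data. ± is SE. KO to WT ratios add 0.5 UMI and carry an exact conditional binomial 95% interval, shares a Clopper-Pearson one. Doublets were called with Scrublet in scanpy 1.11.5 and kept. Named genes were, per contrast, the 10 largest rises and falls among called genes with the same sign in every library and at least 50 UMIs, per ratio the 8 on each side by the interval limit nearest 0, and genes of the lists. Reporter, sex, ribosomal, haemoglobin, immunoglobulin and receptor V genes and unnamed models were not named, except reporters and V segments as counts of cells. The reporter comparison, the removal of 6 members with other cells' markers and the stromal background were added after the data were seen. Positions are from GENCODE M21 (GRCm38).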

Additional observations from a re-analysis of the deposited data

Results flagged for a closer look

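The share of naive CD8 T cells moved in opposite directions with genotype in the 2 depots. KO minus WT was 6.18 percentage points of kept barcodes in SC and -1.65 in IP. Among T cell barcodes it was 3.29 in SC and -9.37 in IP, and among CD8 T cell barcodes 3.86 in SC and -28.4 in IP. These differences rest on 1 library per group and were not tested. KO IP held 3 members, and among T cell barcodes thinned to 2000 UMIs the KO share in SC was below the WT share. Of kept barcodes thinned in this way, the SC shares were 10.7% in KO and 10.1% in WT, with overlapping intervals.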

How the results depend on the processing

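Among T cell barcodes the order of KO SC and WT SC turned after thinning, from 38.0% and 34.7% to 21.2% and 25.1%. No other order of member shares between genotypes turned, and no named gene reversed direction. In some counts of genes the larger side did turn, as given below. For naive against memory and effector CD8 cells, genes higher (50) became 23 with DESeq2, 78 with at least 2 Cd8 UMIs, 134 with no filter on low counts, 2 after thinning and 12 to 113 with 1 library left out. Genes lower (152) became 101, 254 with no filter, 10 after thinning and 74 to 278 with 1 library left out. Without WT SC the counts were 12 and 74, and without WT IP 113 and 278. Against the CD4 class, 533 higher became 188 with DESeq2 and 66 after thinning, and 541 lower became 163 and 35. The higher side was thus the larger in both of these settings. Thinning to 2000 UMIs also left fewer members and counts, and the memory contrast lost WT IP, where 6 members remained, so depth and the number of libraries (2 in place of 3) changed together. For the reporter contrast, DESeq2 called 0 and 0, no filter 3 and 17, and leaving out barcodes with other cells' markers 1 lower. Shares after thinning were 10.1% of kept and 25.1% of T cell barcodes in WT SC, 10.7% and 21.2% in KO SC, and 0.940% and 5.88% in WT IP. Genes past 2-fold between SC libraries were 99 higher and 156 lower after thinning, and 49 and 95 with at least 50 UMIs. With median-of-ratios scaling they were 260 higher and 208 lower, in place of 207 and 291, so the larger side turned. Of the named genes' values, 265 of 281 in the memory contrast and 222 of 224 in the CD4 contrast kept direction and side of the threshold. In the ratios, which had no threshold, 283 of 288 stayed within the interval of the main setting and the others moved outside it. DESeq2 did not call Itgb8, Fam71b, Arhgef11, Mgrn1 and Slamf1. Leaving out a library was not run for the 2-library contrasts, which would have no residual degrees of freedom. The class contrasts were paired within libraries by the library block. No pairing between genotypes was possible because each group was 1 library and the labels give no replicate numbers. A fit of genotype with depot as block was not run. Depth limits KO IP, where 1 UMI is 32.1 CPM.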
